A study of Oryctolagus cuniculus with 16 samples.

Results

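Turned copper implants were compared with turned titanium implants in the tibiae of 4 rabbits (Oryctolagus cuniculus), 10 days after placement. The comparison takes every library labelled Turned Cu (4) and every library labelled Turned Ti (4), which is 8 of the 16 RNA-seq libraries of the series, and the labels alone chose them. Both groups share the machined surface, the drilled tibial site and the animal, since each rabbit gave 1 library to each group, and they differ in the metal. Each rabbit also carried a titanium implant with a sandblasted and acid-etched surface (SLA Ti) and a drilled site labelled Sham. The tissue was what a curette scraped from the wall of the hole once the implant was out, so a library can hold bone, marrow, clot and repair tissue, and its RNA was read as stranded total RNA in pairs of 75 bases. The labels used here name no strain, sex, age, transgene or drug. Within each rabbit the copper and the titanium implant lay in opposite legs at the same end of the tibia, distal in rabbits 1 and 3 and proximal in rabbits 2 and 4. The end of the bone and the pair of rabbits therefore cannot be told apart.

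Copper is an essential cofactor of enzymes of respiration, antioxidant defence and matrix cross-linking, and it is toxic to cells in excess because the free ion drives oxidation and displaces other metals from proteins. Cells bind the surplus with metallothioneins, small cysteine-rich proteins that the zinc-sensing transcription factor MTF1 switches on, and pump it out through the ATPases ATP7A and ATP7B. Titanium is covered by a stable oxide and releases little metal, and bone can grow directly onto it, a process called osseointegration, in which inflammatory cells, vessels, fibroblasts and osteoblasts all take part.

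The 4 copper libraries held 8539984 to 20406474 counts and the 4 titanium libraries 10664681 to 19217546, most of them from ribosomal RNA. Genes with at least 10 counts numbered 7445 to 8362 beside copper and 9682 to 11287 beside titanium, groups that did not overlap (exact permutation test, two-sided, p = 0.0286, the smallest that 4 against 4 allows). The depth in coding genes differed too. Protein-coding genes of the nucleus held 988967 to 1893841 counts beside copper and 1494340 to 3960681 beside titanium (exact permutation test, two-sided, p = 0.0857). Transcripts of the mitochondrial genome made up 33.8, 74.1, 19.7 and 65.5% of the counts outside ribosomal RNA beside copper in rabbits 1 to 4 and 13.7, 30.04, 15.4 and 27.3% beside titanium (exact permutation test, two-sided, p = 0.114). That share was higher beside copper in each rabbit. The permutation tests of this paragraph took the libraries as unpaired. A fit without ribosomal RNA and mitochondrial genes is given near the end. Beyond that fit, the part that differences in content, coding depth and genes detected play in the results below was not tested. Among the titanium libraries, that of rabbit 1 stood apart with low osteoblast genes and that of rabbit 4 with high levels of erythroid and granule genes, and the counts of those lists are also given without that rabbit. The deposited gene table pairs 14537 of its 29587 identifiers with a symbol. No source used here names its genome build.

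The comparison asks what the metal changes at an implant of the same surface. Beside copper, metallothioneins, haem oxygenase, cytokines, interferon-responsive genes and neutrophil markers were higher, and genes of bone, cartilage, fibroblast matrix and vessels were lower. Of 10078 genes that passed the filter on low counts, 3053 (30.3%) differed at an adjusted p under 0.05 (edgeR's quasi-likelihood test with the rabbit as a block, Benjamini-Hochberg adjustment), 1585 (15.7% of those tested) higher beside copper and 1468 (14.6%) lower. These shares are the background for every gene group that follows. In 3812 of the tested genes (37.8%), 2749 of them called, the levels of the 2 groups did not overlap. A lack of overlap is thus common here and adds little to a call. A gene that is high in one group alone passes the filter through that group, so counts over a list refer to its tested members. Every called gene differed by at least 2-fold, 250 of the higher and 254 of the lower ones by more than 16-fold, and 2987 of the 3053 moved the same way in all 4 rabbits. Among all 10078 tested genes 5045 did so, and a test over these same rabbits favours genes of equal sign. The median log2 fold change over all tested genes was -0.21, where a positive value means higher beside copper. At the other extreme, 373 genes (3.70%) had a 95% interval of the log2 fold change lying wholly between -1 and 1. In tissue of mixed cells, fewer cells of a type and less RNA per cell cannot be told apart. Levels are given in CPM, the usual scaling of a count by the total of its library, here the TMM-scaled total, in the order of rabbits 1 to 4, and every ± after a log2 fold change is its standard error (n = 4 rabbits).

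**Figure D1:**
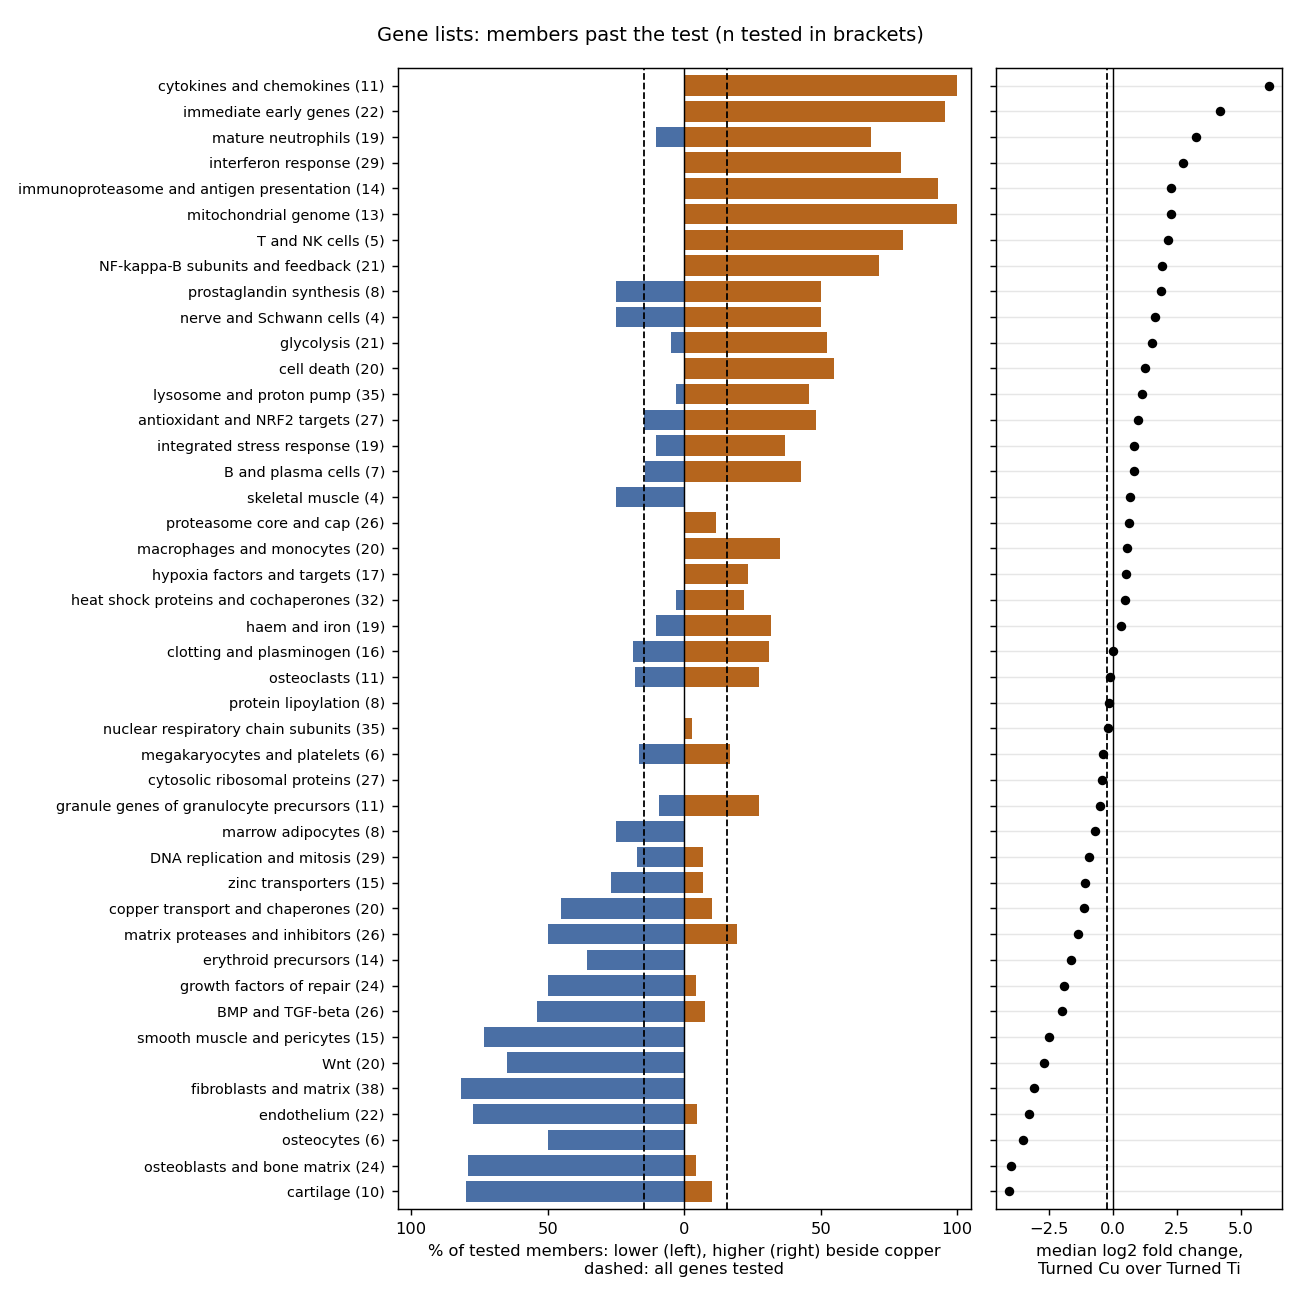
Share of tested members of each gene list that passed the test, higher (right) or lower (left) beside copper, with the number tested in brackets; the right panel gives each list's median log2 fold change, and dashed lines mark the values over all tested genes. Cytokines and immediate early genes lie at the top with medians of 6.13 and 4.19, and cartilage and osteoblast genes at the bottom with -4.06 and -3.98. Lists of fewer than 4 tested genes are not drawn.

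The genes that bind surplus metal rose in every rabbit, while the copper-handling proteins as a group did not. Both tested metallothioneins were called higher, with a median log2 fold change of 5.72. MT1A stood at 98.1, 147, 88.2 and 115 CPM beside copper and at 2.27, 2.26, 4.36 and 4.44 CPM beside titanium. MT2A stood at 19.9, 21.8, 23.2 and 28.4 CPM beside copper and at 0.561, 0.376, 0.118 and 0.143 CPM beside titanium. In neither gene did the groups overlap, and the log2 fold changes were 5.11 ± 0.49 (adjusted p = 0.000221) and 6.32 ± 0.57 (adjusted p = 0.000213). Rabbit metallothionein genes are near-identical copies, so reads may be shared between them. MTF1, the transcription factor that drives metallothioneins, rose less, from 3.20, 2.84, 2.80 and 3.30 CPM beside titanium to 11.2, 7.21, 11.4 and 7.59 CPM beside copper (log2 fold change 1.60 ± 0.37, adjusted p = 0.00909).

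Of 20 tested genes of copper transport and copper enzymes, 2 were called higher and 9 lower, with a median of -1.13. Besides MTF1, the other higher gene was STEAP4, a plasma membrane reductase of iron and copper, at 61.3, 28.7, 79.1 and 27.4 CPM beside copper against 4.78, 6.64, 5.78 and 6.30 CPM beside titanium (2.93 ± 0.47, adjusted p = 0.00144). The exporter ATP7A stood at 10.0, 8.91, 18.3 and 7.23 CPM beside copper and at 14.7, 3.34, 12.6 and 4.37 CPM beside titanium, and its groups overlapped (0.53 ± 0.41, adjusted p = 0.368). Its relative ATP7B, best known from liver, had no read in 3 copper libraries and 0.973 CPM in that of rabbit 3, against 3.28, 2.59, 3.18 and 4.80 CPM beside titanium (-4.35 ± 1.00, adjusted p = 0.00893). CCS, the chaperone that loads copper into superoxide dismutase 1, stood at 1.73, 1.44, 0.108 and 0.612 CPM beside copper and at 1.23, 1.09, 1.24 and 0.788 CPM beside titanium (-0.40 ± 0.71, adjusted p = 0.704). The importer SLC31A1 did not pass the filter, with 1, 2, 4 and 4 raw counts beside copper and 27, 9, 60 and 5 beside titanium.

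The remaining lower genes of the copper list were for the most part lysyl oxidases, the copper enzymes that cross-link collagen and elastin. LOX stood at 1.96, 1.70, 1.73 and 4.04 CPM beside copper and at 26.3, 31.2, 68.0 and 19.6 CPM beside titanium (-3.86 ± 0.55, adjusted p = 0.000888). LOXL4 stood at 0, 0.393, 1.41 and 0 CPM beside copper and at 4.19, 29.6, 17.2 and 11.1 CPM beside titanium (-5.45 ± 0.74, adjusted p = 0.000701). The groups did not overlap in either gene, and LOXL1, LOXL2 and LOXL3 were called lower too. ATOX1, the chaperone that hands copper to the ATPases, was listed at 34.6, 43.3, 87.3 and 58.5 CPM beside copper against 614, 1036, 1376 and 706 CPM beside titanium (-4.08 ± 0.47, adjusted p = 0.000389). Its gene model in the table, on chromosome 3 from 33117791 to 33199104, overlaps that of the bone matrix gene SPARC, so this value cannot be assigned to ATOX1. Of 15 tested zinc transporters 1 was called higher and 4 lower (median -1.08), and no call of a lower transporter held without rabbit 2. SLC39A14, an importer of zinc and other metals, stood at 2.54, 0.655, 1.73 and 0.122 CPM beside copper and at 3.07, 13.6, 9.66 and 6.73 CPM beside titanium (-2.84 ± 0.76, adjusted p = 0.0185, not past the threshold without rabbit 2). SLC39A1, the plasma membrane zinc importer that was higher, stood at 30.3, 16.0, 44.2 and 22.9 CPM beside copper against 15.0, 15.0, 9.55 and 4.73 CPM beside titanium (1.404 ± 0.46, adjusted p = 0.0436), and that call was lost without rabbit 1, 3 or 4. SLC30A4, a vesicle zinc transporter, stood at 0.346, 0.131, 0.216 and 0.735 CPM beside copper against 2.51, 1.92, 4.33 and 1.29 CPM beside titanium (-2.78 ± 0.71, adjusted p = 0.0144), a call lost without rabbit 1, 2 or 3.

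Among 19 tested genes of haem and iron, 6 were called higher and 2 lower (median 0.31). HMOX1, the haem oxygenase that is induced by oxidants and metals, stood at 828, 835, 1969.9 and 607 CPM beside copper and at 10.2, 31.8, 23.9 and 16.3 CPM beside titanium. The groups lay far apart (5.66 ± 0.57, adjusted p = 0.000248). FTL, the ferritin light chain that stores iron, stood at 1911, 2448, 3329 and 1705 CPM beside copper and at 264, 375, 258 and 256 CPM beside titanium (2.99 ± 0.47, adjusted p = 0.00137); ferritins have many near-identical copies. SLC11A1, the phagosomal metal transporter of neutrophils and macrophages, stood at 633, 216, 509 and 279 CPM beside copper and at 1.82, 5.27, 1.47 and 6.95 CPM beside titanium (6.88 ± 0.81, adjusted p = 0.000423). The iron exporter SLC40A1 went the other way, at 7.84, 8.91, 4.97 and 7.72 CPM beside copper against 24.5, 18.6, 51.3 and 29.0 CPM beside titanium (-1.98 ± 0.46, adjusted p = 0.00903).

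Of 27 tested antioxidant genes, 13 were called higher and 4 lower (median 0.97). The thioredoxin reductase TXNRD1 stood at 29.2, 39.1, 33.1 and 20.6 CPM beside copper and at 5.10, 4.64, 6.01 and 4.08 CPM beside titanium (2.59 ± 0.37, adjusted p = 0.000878). SRXN1, which repairs oxidised peroxiredoxins, stood at 17.98, 8.65, 11.6 and 12.1 CPM beside copper against 1.82, 2.55, 2.03 and 1.36 CPM beside titanium (2.68 ± 0.42, adjusted p = 0.00127), and the microsomal glutathione transferase MGST1 at 22.1, 10.49, 26.4 and 21.2 CPM beside copper against 2.19, 0.919, 1.09 and 2.58 CPM beside titanium (3.61 ± 0.43, adjusted p = 0.000415). Neither gene's groups overlapped. The genes for both subunits of glutamate-cysteine ligase, GCLC and GCLM, were also called higher. The lower genes were PRDX4, GPX3, GPX7 and GPX8, of which GPX7, a peroxidase of the endoplasmic reticulum, stood at 1.15, 1.05, 1.30 and 1.96 CPM beside copper against 9.61, 10.3, 20.5 and 6.38 CPM beside titanium (-3.00 ± 0.48, adjusted p = 0.00143). Without rabbit 1, 2 of the list were lower. Of 8 tested genes of protein lipoylation, the mitochondrial modification to which copper is known to bind, none was called over all rabbits by edgeR or DESeq2. None had an unadjusted p under 0.05 in the edgeR fit (median -0.15). The distal sites fitted alone called 2 lower (median -0.88), beside 2349 of all 10619 genes tested there, and the proximal sites 0 (median 0.58). PDHX of this list, a subunit of the pyruvate dehydrogenase complex, stood at 1.38, 1.44, 0.757 and 2.33 CPM beside copper against 2.78, 2.26, 3.30 and 2.65 CPM beside titanium (-0.96 ± 0.50, adjusted p = 0.174).

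**Figure D2:**
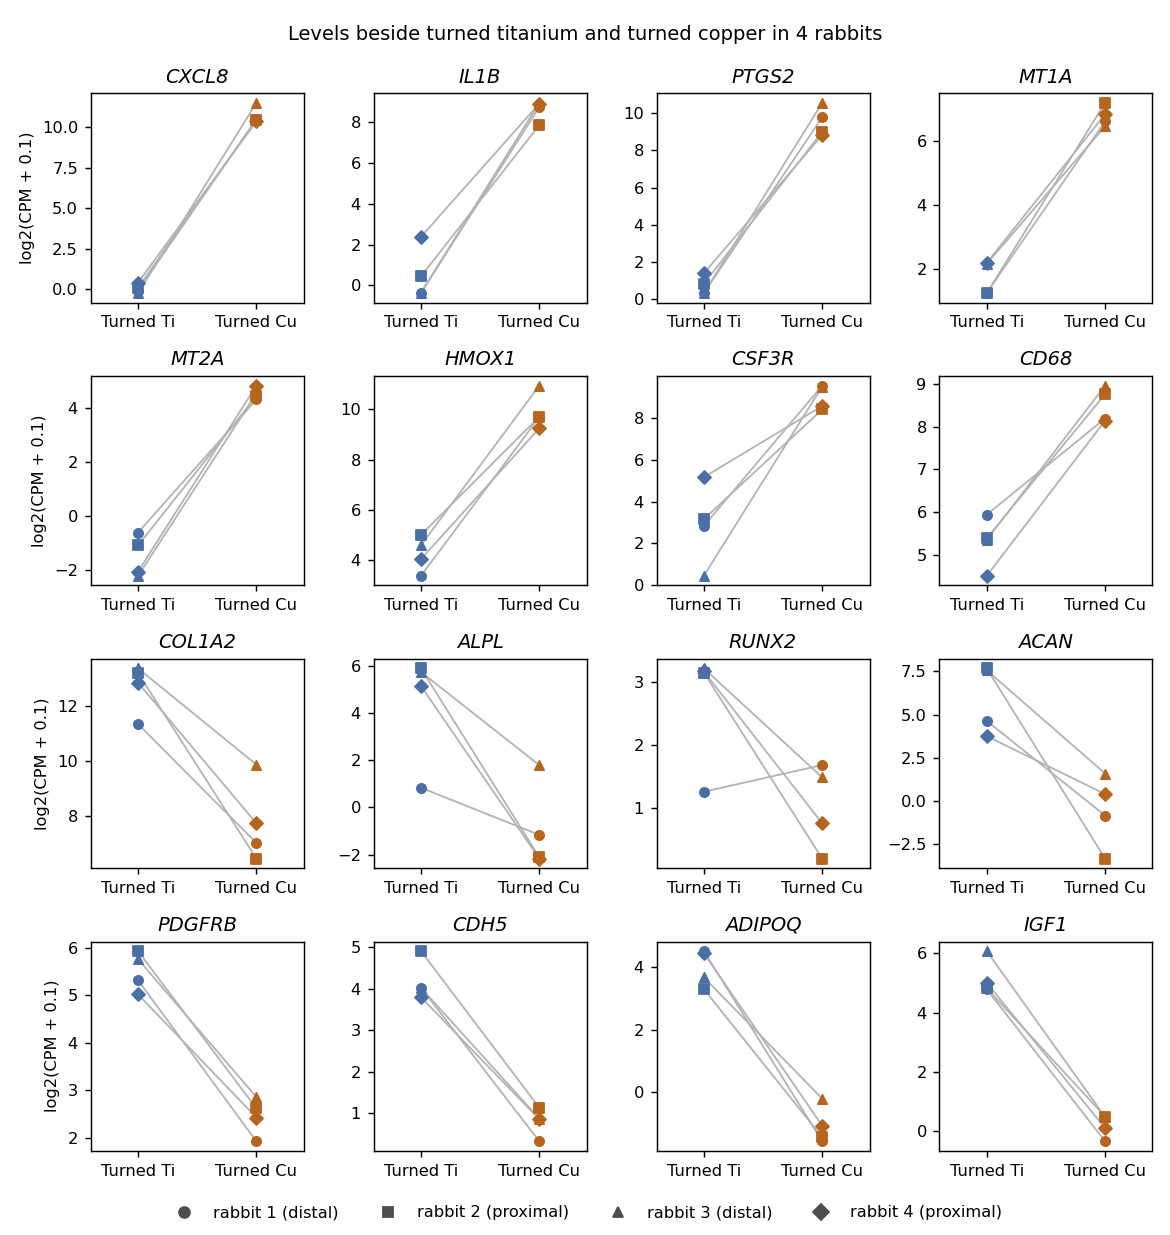
Levels of 16 genes in each of the 8 libraries, as log2(CPM + 0.1), with Turned Ti left and Turned Cu right and a line joining the 2 libraries of 1 rabbit; the marker shape gives the rabbit and each panel has its own axis. CXCL8, MT1A, MT2A and HMOX1 rise along every line, and RUNX2 is the only gene drawn with a line that runs against the other 3, in rabbit 1.

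Inflammatory mediators had the highest median of the gene lists. Of 33 cytokines and chemokines with a symbol, 11 passed the filter, and all 11 were called higher, with a median of 6.13. The share over all tested genes was 15.7%. CCL4, CXCL5 and TNF had 29, 17 and 23 counts over the titanium libraries, and members with so few could pass the filter only through the copper group. The count and the median of this list are therefore no test of it. CXCL8, the neutrophil attractant interleukin 8, stood at 1455, 1419, 2919.6 and 1316 CPM beside copper and at 0.828, 0.961, 0.737 and 1.22 CPM beside titanium. This gene had the largest log2 fold change of the named genes that met the rule for naming, 10.82 ± 0.70 (adjusted p = 7.4e-05), and its highest copper library was that of rabbit 3. CCL4, an attractant of monocytes and lymphocytes, stood at 410.3, 112, 286 and 321 CPM beside copper and at 0.320, 0.0836, 0.206 and 0.573 CPM beside titanium (10.00 ± 0.61, adjusted p = 7.4e-05); reads of CC chemokines may be shared between close relatives. CXCL5, another ligand of the neutrophil receptor CXCR2, stood at 27.1, 22.8, 93.2 and 12.7 CPM beside copper against 0.0267, 0.125, 0.295 and 0.215 CPM beside titanium (7.83 ± 0.66, adjusted p = 0.000172). None of these 3 genes had overlapping groups.

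The fever cytokine IL1B stood at 429, 232, 493 and 482 CPM beside copper and at 0.667, 1.25, 0.678 and 5.09 CPM beside titanium (8.22 ± 0.74, adjusted p = 0.000213). Its natural antagonist IL1RN rose with it, at 1544, 976, 1557 and 764 CPM beside copper and at 5.87, 16.1, 5.75 and 5.37 CPM beside titanium (7.31 ± 0.65, adjusted p = 0.000202). TNF stood at 16.5, 4.98, 7.89 and 5.27 CPM beside copper against 0.0534, 0.501, 0.177 and 0.215 CPM beside titanium (5.20 ± 0.75, adjusted p = 0.000932). CSF1, the growth factor of macrophages and osteoclast precursors, stood at 393, 124, 261 and 218 CPM beside copper against 15.0, 15.4, 10.3 and 11.7 CPM beside titanium (4.16 ± 0.49, adjusted p = 0.000426). IL-15L, listed under the name of an interleukin 15-like gene, had no read in any titanium library and 3.00, 4.33, 2.49 and 2.69 CPM beside copper. Set against 3 counts over the titanium group, it was at least 112-fold higher beside copper.

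Of 8 tested prostaglandin genes, 4 were called higher and 2 lower (median 1.89). Without rabbit 2 the counts were 4 and 0, and without rabbit 3 the median was 3.85. PTGS2, the inducible cyclooxygenase, stood at 878, 509, 1501 and 454 CPM beside copper and at 1.15, 1.67, 1.15 and 2.51 CPM beside titanium (8.92 ± 0.74, adjusted p = 0.000172). PTGS1, the constitutive cyclooxygenase, had no read in 3 copper libraries and 0.541 CPM in that of rabbit 3, against 0.534, 2.51, 1.92 and 1.65 CPM beside titanium (-3.84 ± 0.99, adjusted p = 0.0153, not past the threshold without rabbit 2). The prostacyclin receptor PTGIR stood at 37.7, 62.3, 80.9 and 39.7 CPM beside copper against 0.961, 1.21, 0.236 and 0.788 CPM beside titanium (6.14 ± 0.63, adjusted p = 0.000248), and the thromboxane synthase TBXAS1 at 43.9, 39.3, 63.8 and 25.7 CPM beside copper against 2.14, 1.38, 1.06 and 5.09 CPM beside titanium (4.38 ± 0.62, adjusted p = 0.000883). A pair of enzymes of immune metabolism stood close to the top of all genes. IDO1, which degrades tryptophan, stood at 761, 501, 753 and 651 CPM beside copper and at 0.187, 1.67, 0.442 and 0.931 CPM beside titanium (10.02 ± 0.85, adjusted p = 0.000172). ACOD1, which makes itaconate in activated myeloid cells, stood at 515, 232, 303 and 330.3 CPM beside copper and at 0.534, 4.05, 0.589 and 5.01 CPM beside titanium (7.62 ± 0.91, adjusted p = 0.000428).

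Genes of NF-kappa-B signalling and of early transcription rose with the cytokines. Of 21 tested NF-kappa-B subunits and feedback genes, 15 were called higher and none lower (median 1.92). NFKBIZ, an atypical inhibitor that also co-activates inflammatory genes, stood at 67.2, 33.7, 111 and 31.7 CPM beside copper against 4.14, 3.30, 3.12 and 4.16 CPM beside titanium (3.86 ± 0.49, adjusted p = 0.000552), and the subunit NFKB2 at 90.3, 26.7, 50.5 and 30.3 CPM beside copper against 5.47, 7.35, 5.10 and 6.73 CPM beside titanium (2.84 ± 0.48, adjusted p = 0.00196). Of 22 tested immediate early genes, 21 were called higher (median 4.19), with MYC the exception. ZFP36, the protein that destabilises cytokine messages, stood at 737, 419, 558 and 434 CPM beside copper and at 5.21, 7.94, 3.30 and 15.3 CPM beside titanium (6.28 ± 0.65, adjusted p = 0.000248). The orphan nuclear receptor NR4A3 stood at 127, 47.2, 105.4 and 59.6 CPM beside copper against 0.294, 0.209, 0.236 and 1.93 CPM beside titanium (7.57 ± 0.80, adjusted p = 0.000262), and its relative NR4A2 at 127, 49.2, 132 and 62.7 CPM beside copper against 0.988, 1.13, 0.855 and 2.51 CPM beside titanium (6.09 ± 0.62, adjusted p = 0.000248). The AP-1 subunit FOSB (4.83 ± 0.51, adjusted p = 0.000262) and the transcription factor EGR2 (4.78 ± 0.45, adjusted p = 0.000213) were higher without overlap.

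Interferon-responsive genes were called higher in 23 of 29 tested and lower in none (median 2.76). GBP1, a guanylate-binding protein of cell-autonomous defence, stood at 208, 72.0, 39.9 and 85.5 CPM beside copper and at 3.87, 0.878, 0.884 and 1.86 CPM beside titanium (5.77 ± 0.46, adjusted p = 0.000168). RSAD2, the antiviral protein viperin, stood at 132, 35.8, 76.7 and 30.9 CPM beside copper and at 0.561, 1.25, 0.118 and 1.15 CPM beside titanium (6.54 ± 0.87, adjusted p = 0.000659). The groups did not overlap in either. The interferon-inducible SAMD9L (3.82 ± 0.42, adjusted p = 0.00033) and SAMD9 (3.76 ± 0.41, adjusted p = 0.000298) and the transcription factor IRF1 (4.44 ± 0.56, adjusted p = 0.000539) rose as well. BATF2, an interferon-inducible transcription factor outside the list, stood at 24.7, 26.6, 23.4 and 54.1 CPM beside copper against 0.134, 0.0836, 0.177 and 0.143 CPM beside titanium (7.69 ± 0.51, adjusted p = 7.4e-05). Antigen presentation moved the same way, with 13 of 14 tested genes called higher (median 2.29). B2M, which encodes beta-2-microglobulin of MHC class I molecules, stood at 745, 469.7, 532 and 480.0 CPM beside copper and at 26.4, 10.6, 22.9 and 12.7 CPM beside titanium (5.02 ± 0.48, adjusted p = 0.000213). The peptide transporter TAP1 (4.72 ± 0.54, adjusted p = 0.000371) and the immunoproteasome subunit PSMB8 (2.92 ± 0.40, adjusted p = 0.000715) rose too. Of 26 subunits of the constitutive proteasome 3 were called higher and none lower (median 0.64). That count was 1 without rabbit 2 or without rabbit 4, and in the fits of all 16 libraries it was 8 with the rabbit as a block and 13 without.

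Markers of mature neutrophils were higher beside copper. Of 19 tested, 13 were called higher and 2 lower (median 3.25), and the summed level of the list ran from 1632 to 4321 CPM beside copper and from 211 to 720.3 CPM beside titanium. The lower members were MME and ALPL, which stromal cells and osteoblasts also express. CSF3R, through which granulocyte colony-stimulating factor acts, stood at 741, 338, 721 and 378 CPM beside copper and at 7.05, 8.82, 1.27 and 35.7 CPM beside titanium (6.06 ± 0.97, adjusted p = 0.00145). CXCR1, a receptor for interleukin 8, stood at 81.8, 37.8, 77.6 and 62.2 CPM beside copper against 0.774, 1.80, 0.295 and 6.95 CPM beside titanium (5.49 ± 0.85, adjusted p = 0.00125), and the related receptor CXCR2 at 89.2, 43.3, 82.9 and 48.3 CPM beside copper against 1.60, 1.63, 0.295 and 9.17 CPM beside titanium (5.20 ± 0.89, adjusted p = 0.00204). FPR2, a receptor for formyl peptides, rose likewise (5.74 ± 0.81, adjusted p = 0.000864), as did the integrin chain ITGB2 at 962, 541, 1339.9 and 527 CPM beside copper against 97.0, 62.5, 45.6 and 159 CPM beside titanium (3.25 ± 0.60, adjusted p = 0.003). S100A8, a subunit of calprotectin and one of the most abundant neutrophil proteins, stood at 125, 107, 456 and 167 CPM beside copper and at 19.6, 8.48, 3.24 and 57.7 CPM beside titanium (3.53 ± 0.86, adjusted p = 0.0117). In all of these the groups kept apart, and the titanium library of rabbit 4 was the highest of its group.

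Granule genes, which are transcribed in granulocyte precursors of the marrow, gave counts and a median that turned on single rabbits. Of 11 tested, 3 were called higher and 1 lower (median -0.49), and their sum ran from 454 to 633 CPM beside copper and from 266 to 1657 CPM beside titanium, the highest in rabbit 4. Without rabbit 4 the counts were 5 higher and 1 lower (median 0.60), without rabbit 1 they were 3 and 0 (0.77), and without rabbit 3 they were 3 and 4 (-1.49). Without the rabbit as a block 3 were higher and 5 lower (median -1.61). MPO, the myeloperoxidase of primary granules, stood at 0.576, 0, 1.51 and 0 CPM beside copper and at 16.3, 1.42, 0.442 and 107 CPM beside titanium (-4.48 ± 1.82, adjusted p = 0.0894). It did not pass here, nor without rabbit 4 (-2.22), but it did without rabbit 3 (-7.12), without the block (-5.82), with all 16 libraries (-5.00 with the block), with no filter (-4.58) and by DESeq2 (-5.27). LTF, the lactoferrin of secondary granules, stood at 98.8, 49.3, 33.3 and 66.4 CPM beside copper and at 90.7, 21.6, 2.98 and 451 CPM beside titanium (0.56 ± 0.91, adjusted p = 0.678), and without rabbit 4 it was called higher (1.70). The groups overlapped in both genes. PGLYRP1, a bactericidal protein of neutrophil granules, stood at 166, 93.2, 120.0 and 177 CPM beside copper against 6.99, 4.01, 0.678 and 46.1 CPM beside titanium (4.57 ± 0.85, adjusted p = 0.00325), and CHI3L1 at 67.8, 143, 322 and 122 CPM beside copper against 9.88, 11.5, 12.3 and 52.2 CPM beside titanium (3.10 ± 0.61, adjusted p = 0.00449). MMP9, a gelatinase of neutrophils and osteoclasts, stood at 67.2, 43.1, 80.9 and 87.7 CPM beside copper and at 103, 365, 226 and 160.3 CPM beside titanium (-1.48 ± 0.51, adjusted p = 0.0487), a call lost without rabbit 1, 2 or 3, with all 16 libraries (-1.32 with the block) and once ribosomal RNA and mitochondrial genes were removed (-1.49). EPX, the eosinophil peroxidase, did not pass the filter: it had no raw count in any copper library and 898, 26, 6 and 1787 beside titanium.

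Macrophage and monocyte markers were mixed, with 7 of 20 called higher, none lower and a median of 0.56. By DESeq2 9 were higher and 3 lower, with no filter 8 and 2, and with all 16 libraries and the block 7 and 1. Without the block and with RLE scaling the counts were again 7 and 0. The list's sum was 1370 to 2209 CPM beside copper and 196 to 1181 CPM beside titanium. CD68, a lysosomal protein of phagocytes, stood at 293, 435, 499.5 and 283 CPM beside copper and at 61.3, 41.8, 40.8 and 22.6 CPM beside titanium (3.23 ± 0.46, adjusted p = 0.000901). CD14, a co-receptor for bacterial lipopolysaccharide, stood at 102, 75.8, 130.3 and 64.4 CPM beside copper against 41.4, 16.7, 17.6 and 8.10 CPM beside titanium (2.35 ± 0.44, adjusted p = 0.00351). The scavenger receptor MSR1 stood at 51.6, 75.2, 45.8 and 37.6 CPM beside copper against 17.5, 15.3, 19.7 and 2.22 CPM beside titanium (2.23 ± 0.52, adjusted p = 0.00977), and the signalling adaptors TYROBP (2.37 ± 0.44, adjusted p = 0.0031) and FCER1G (3.58 ± 0.56, adjusted p = 0.00137) were higher too. CD163, the haemoglobin scavenger receptor of resident and repair macrophages, stood at 2.07, 10.2, 5.62 and 4.16 CPM beside copper and at 4.56, 10.8, 15.1 and 3.73 CPM beside titanium, with overlapping groups (-0.62 ± 0.41, adjusted p = 0.291).

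Lymphocyte lists were small and low. Of 22 T and NK cell genes with a symbol, 5 passed the filter, and 4 of these were called higher (median 2.15). Their sums were 12.4 to 16.9 CPM beside copper and 2.72 to 5.23 CPM beside titanium, and none was called without rabbit 4. Members this low beside titanium may have passed the filter through the copper group alone, so this count and median are no test of the list. CD5, a co-receptor of T cells and some B cells, stood at 3.92, 1.84, 6.27 and 3.55 CPM beside copper against 0.0534, 0.376, 0.236 and 0.501 CPM beside titanium (3.86 ± 0.71, adjusted p = 0.00308). Of 7 B and plasma cell genes 3 were higher and 1 lower (median 0.82), and 1 was higher without rabbit 1 or without rabbit 2. CD22, an inhibitory receptor of B cells, stood at 27.4, 24.9, 22.6 and 19.5 CPM beside copper against 3.31, 4.81, 3.21 and 4.66 CPM beside titanium (2.58 ± 0.38, adjusted p = 0.000964). EBF1, a transcription factor of B cells that stromal cells also express, fell from 14.1, 17.7, 18.7 and 14.3 CPM beside titanium to 0.576, 1.44, 1.19 and 2.69 CPM beside copper (-3.58 ± 0.47, adjusted p = 0.000625). Red cell precursors had 5 of 14 genes called lower and none higher (median -1.63), with sums of 70.7 to 130 CPM beside copper and 61.0 to 666 CPM beside titanium, the highest in rabbit 4. SLC4A1, the anion exchanger band 3, stood at 0.346, 0.131, 0.324 and 0.735 CPM beside copper and at 27.1, 2.80, 0.589 and 116 CPM beside titanium (-5.47 ± 1.00, adjusted p = 0.00298). SPTB, the erythroid beta spectrin, stood at 1.04, 0, 0.216 and 0 CPM beside copper against 32.03, 2.30, 0.471 and 108 CPM beside titanium (-6.04 ± 1.24, adjusted p = 0.00549). Each overlapped only through single libraries, and 3 of the 14 were lower without rabbit 2 or without rabbit 4.

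Of 6 megakaryocyte and platelet genes 1 was called higher and 1 lower (median -0.38). They were GP5, a subunit of the von Willebrand factor receptor, at 2.31, 2.75, 2.60 and 2.205 CPM beside copper against 0.213, 0.167, 0.0884 and 0.860 CPM beside titanium (3.30 ± 0.70, adjusted p = 0.00605), and ITGA2B, the platelet integrin alpha IIb, at 0.115, 0, 0.108 and 0.122 CPM beside copper against 1.82, 2.38, 1.15 and 2.94 CPM beside titanium (adjusted p = 0.00261). C1orf162, a gene outside the lists, was among the highest named, at 340.0, 176, 349 and 225 CPM beside copper against 0.454, 1.504, 1.33 and 1.22 CPM beside titanium (7.96 ± 0.65, adjusted p = 0.000169).

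**Figure D3:**
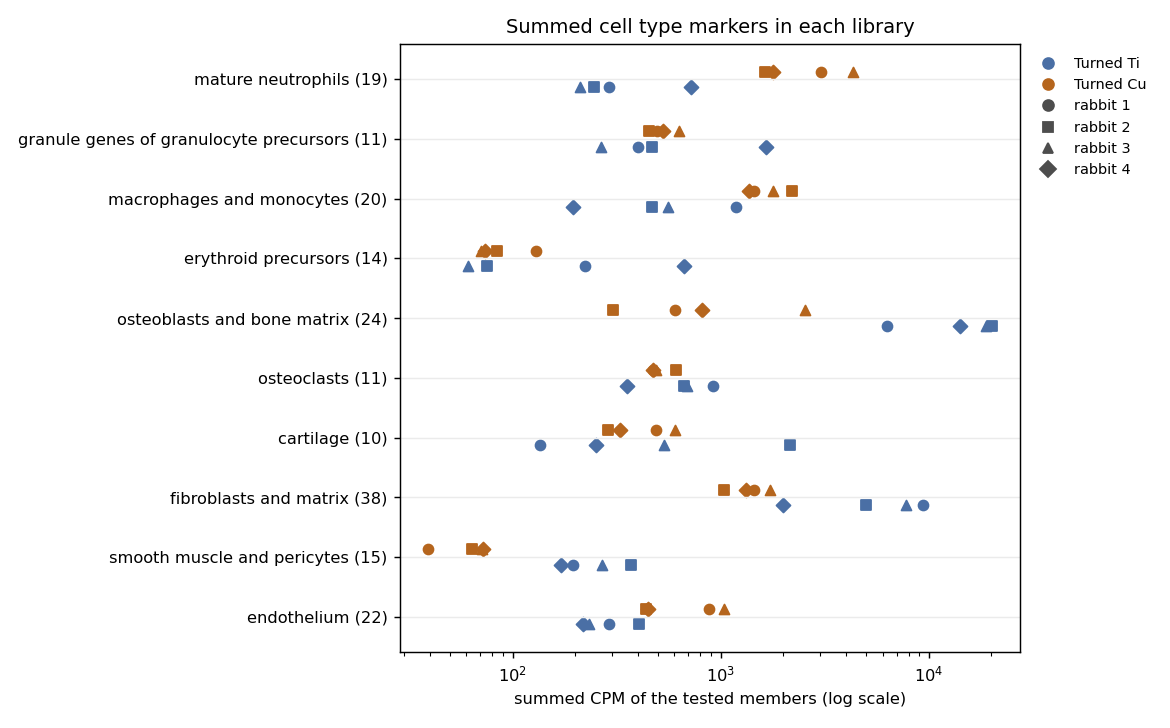
Summed CPM (log scale) of the tested members of 10 marker lists in each library, Turned Ti in blue and Turned Cu in orange, with 1 marker shape per rabbit. The neutrophil, macrophage, osteoblast, fibroblast, pericyte and endothelial sums separate the metals, at 1632 to 4321 against 211 to 720.3 CPM for neutrophils. The granule, erythroid, osteoclast and cartilage sums overlap.

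Genes of bone formation were lower beside copper. Of 24 tested osteoblast and bone matrix genes, 19 were called lower and 1 higher (median -3.98), against 14.6% lower among all genes, and their sum was 305 to 2555 CPM beside copper and 6314 to 20183 CPM beside titanium. COL1A2, a chain of type I collagen, stood at 132, 89.1, 934 and 215 CPM beside copper and at 2577, 9226, 10364 and 7248 CPM beside titanium (-4.85 ± 0.69, adjusted p = 0.000901). COL1A1, the other chain, stood at 151, 49.2, 1178 and 189.7 CPM beside copper and at 951, 8442, 3815 and 5455 CPM beside titanium (-4.02 ± 0.98, adjusted p = 0.012). The groups were apart for COL1A2, and for COL1A1 the copper library of rabbit 3 lay above the titanium library of rabbit 1. ALPL, the alkaline phosphatase that frees phosphate for mineral, stood at 0.346, 0.131, 3.35 and 0.122 CPM beside copper and at 1.68, 58.9, 52.9 and 35.2 CPM beside titanium (-5.44 ± 0.95, adjusted p = 0.00229). BGLAP, the bone hormone osteocalcin, had no read in 3 copper libraries and 2.38 CPM in rabbit 3, against 0.347, 9.19, 7.69 and 13.6 CPM beside titanium (-4.56 ± 1.10, adjusted p = 0.0113). In ALPL and BGLAP, again, rabbit 1's titanium library was far below its group, and the copper library of rabbit 3 lay above it.

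The transcription factors of the osteoblast lineage followed in part. RUNX2, which commits cells to the lineage, stood at 3.11, 1.05, 2.703 and 1.59 CPM beside copper and at 2.30, 8.78, 9.19 and 8.88 CPM beside titanium. It was lower in 3 rabbits and higher in rabbit 1, and it did not pass the test (-1.71 ± 0.59, adjusted p = 0.0525), though it did without rabbit 1 (log2 fold change -2.31), without the block (-1.77), with all 16 libraries (-1.59 with the block), with no filter (-1.83) and by DESeq2 (-1.71). SP7, the factor osterix that acts after RUNX2, stood at 0.576, 0.262, 2.05 and 0.122 CPM beside copper and at 0.454, 20.2, 17.3 and 14.1 CPM beside titanium (-3.79 ± 0.97, adjusted p = 0.0148, and -2.98 without rabbit 2, not past the threshold). IBSP, bone sialoprotein, stood at 12.1, 4.85, 8.87 and 19.8 CPM beside copper and at 0.988, 191, 299.9 and 104 CPM beside titanium and did not pass (-3.09 ± 1.48, adjusted p = 0.144), though it did without rabbit 1 (-4.21), without the block (-3.71) and with no filter (-3.19). SPP1, osteopontin, which macrophages also make, stood at 200.1, 93.3, 136 and 253 CPM beside copper and at 1534, 346, 951 and 293 CPM beside titanium (-1.997 ± 0.57, adjusted p = 0.0238), a call lost without rabbit 1 (-1.56) or rabbit 2 (-1.99) and with all 16 libraries (-1.99 with the block and -2.06 without it).

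Several matrix genes of the list fell in every rabbit. OGN, the small proteoglycan osteoglycin, stood at 0.346, 0.786, 2.38 and 0.490 CPM beside copper and at 164, 38.0, 262 and 13.0 CPM beside titanium, and it had the lowest log2 fold change under the rule for naming, -6.51 ± 0.72 (adjusted p = 0.000336). OMD, the keratan sulphate proteoglycan osteomodulin, stood at 0.115, 0.131, 0.865 and 0.122 CPM beside copper against 0.881, 8.94, 66.3 and 17.6 CPM beside titanium (-6.06 ± 0.63, adjusted p = 0.000255). The fibrillar collagens COL11A1 (3.69, 2.75, 23.8 and 5.88 CPM beside copper against 109, 679, 917 and 205 CPM beside titanium, -5.72 ± 0.67, adjusted p = 0.000399) and COL24A1 (-5.04 ± 0.56, adjusted p = 0.000348) did not overlap. The single higher member was VDR, the vitamin D receptor, which immune cells also carry. Without rabbit 1, whose titanium library was low in this list, 19 members were called lower and none higher (median -4.18), and without rabbit 2 there were 14 lower.

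Of 6 tested osteocyte genes 3 were called lower (median -3.50). DMP1, a matrix protein of osteocytes that regulates mineral and phosphate, stood at 0.231, 0.262, 7.14 and 2.82 CPM beside copper and at 0.294, 117, 171 and 80.5 CPM beside titanium (-5.12 ± 0.99, adjusted p = 0.00388). The homeobox factor IRX5 stood at 0, 0.393, 0.216 and 0.367 CPM beside copper against 0.347, 9.32, 4.77 and 5.803 CPM beside titanium (-4.34 ± 0.57, adjusted p = 0.000621). In both, the titanium library of rabbit 1 lay within the range of the copper libraries. SOST, which encodes the Wnt inhibitor sclerostin, did not pass the filter.

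Cartilage genes were lower in 8 of 10 tested and higher in 1 (median -4.06). ACAN, the proteoglycan aggrecan, stood at 0.461, 0, 2.92 and 1.22 CPM beside copper and at 24.7, 203, 188 and 13.4 CPM beside titanium (-6.09 ± 1.04, adjusted p = 0.00209). COL2A1, the collagen of cartilage, stood at 3.57, 0.393, 4.43 and 0.367 CPM beside copper and at 16.1, 1411, 89.0 and 19.8 CPM beside titanium (-5.24 ± 1.32, adjusted p = 0.0138). Neither overlapped, and the titanium level itself varied widely between rabbits. SOX9, the master factor of chondrocytes, stood at 0, 0, 2.05 and 0.367 CPM beside copper against 0.667, 4.43, 5.42 and 1.93 CPM beside titanium (-2.93 ± 0.84, adjusted p = 0.0244, lost without rabbit 1 or 2 and, at -2.30, without the block). The higher gene was MATN1, listed as the cartilage matrix protein matrilin 1, at 479, 281, 546 and 321 CPM beside copper and at 84.0, 43.0, 44.3 and 52.4 CPM beside titanium (2.86 ± 0.44, adjusted p = 0.00121). It alone made up most of the cartilage sum beside copper, which was 286 to 601 CPM, against 136 to 2148 CPM beside titanium.

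Osteoclast genes did not move one way. Of 11 tested, 3 were called higher and 2 lower (median -0.10), and their sums overlapped, 473 to 610.2 CPM beside copper and 355 to 923 CPM beside titanium. CTSK, the collagen-degrading protease cathepsin K, stood at 229.7, 313, 199 and 213 CPM beside copper and at 662, 174, 346 and 102 CPM beside titanium (-0.10 ± 0.55, adjusted p = 0.913). SNX10, a sorting protein needed for the ruffled border of osteoclasts and also expressed in macrophages, stood at 101, 84.7, 126 and 70.4 CPM beside copper against 24.3, 11.9, 16.0 and 11.6 CPM beside titanium (2.62 ± 0.40, adjusted p = 0.00114). OSCAR, a co-stimulatory receptor of osteoclasts, stood at 0.922, 0, 0.865 and 0 CPM beside copper against 4.83, 4.22, 3.30 and 1.65 CPM beside titanium (-3.24 ± 0.80, adjusted p = 0.0123). Without rabbit 3, 1 was higher and 1 lower (median 0.46), and without rabbit 1 the median was 0.69.

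Fibroblast and matrix genes were lower in 31 of 38 tested and higher in none (median -3.08). The list's sum was 1043 to 1723 CPM beside copper and 2001 to 9378 CPM beside titanium. LTBP1, which holds latent TGF-beta in the matrix, stood at 0.461, 0.918, 1.73 and 0.980 CPM beside copper and at 21.8, 17.3, 41.2 and 8.81 CPM beside titanium (-4.35 ± 0.49, adjusted p = 0.000367). PDGFRB, the receptor of fibroblasts and pericytes for platelet-derived growth factor, stood at 3.69, 6.03, 7.14 and 5.27 CPM beside copper and at 39.9, 61.1, 54.2 and 32.4 CPM beside titanium (-3.08 ± 0.39, adjusted p = 0.000539). FBLN2, a fibulin of basement membranes and elastic fibres, stood at 0.231, 0.393, 1.08 and 0.245 CPM beside copper against 8.44, 11.7, 24.2 and 2.22 CPM beside titanium (-4.50 ± 0.50, adjusted p = 0.00033). The small proteoglycan ASPN (0.346, 0.524, 0.649 and 0.367 CPM beside copper against 67.6, 10.1, 47.2 and 2.51 CPM beside titanium, -5.45 ± 0.76, adjusted p = 0.000807) and COL14A1, a collagen bound to the surface of fibrils (0.115, 0, 0.973 and 0.735 CPM beside copper against 129, 15.5, 42.0 and 1.00 CPM beside titanium, -5.75 ± 1.33, adjusted p = 0.00908), had no overlap. VIM, FN1 and S100A4, which leukocytes express or which are expressed in many cell types, did not pass.

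Endothelial genes were lower in 17 of 22 tested and higher in 1 (median -3.28). CDH5, VE-cadherin, which joins endothelial cells to each other, stood at 1.15, 2.10, 1.73 and 1.71 CPM beside copper and at 16.3, 29.96, 16.2 and 13.8 CPM beside titanium (-3.47 ± 0.40, adjusted p = 0.000389). FLT4, the receptor of lymphatic and growing vessels for VEGF-C, stood at 0, 0.524, 0.108 and 0.122 CPM beside copper against 2.00, 19.4, 6.54 and 7.24 CPM beside titanium (-5.63 ± 0.57, adjusted p = 0.000248). TEK, the angiopoietin receptor, had reads beside copper in rabbit 2 alone, at 1.05 CPM, against 7.66, 9.82, 11.8 and 6.09 CPM beside titanium (-5.66 ± 0.90, adjusted p = 0.00146). PECAM1 went the other way, at 726, 381, 804 and 318 CPM beside copper and at 28.6, 36.1, 21.98 and 33.4 CPM beside titanium (4.12 ± 0.54, adjusted p = 0.000603); this adhesion molecule is also carried by neutrophils, monocytes and platelets. It dominated the endothelial sum beside copper, 438 to 1033 CPM against 218 to 407 CPM beside titanium, so the sum and the median of this list differ in sign.

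Genes of smooth muscle and pericytes were lower in 11 of 15 tested and higher in none (median -2.47), with sums of 39.4 to 72.3 CPM beside copper and 170 to 371 CPM beside titanium. CSPG4, the pericyte proteoglycan NG2, stood at 1.15, 1.84, 4.00 and 0.735 CPM beside copper against 12.5, 26.4, 10.7 and 7.16 CPM beside titanium (-2.95 ± 0.50, adjusted p = 0.00199). TPM1, a tropomyosin of the actin cytoskeleton, stood at 8.18, 21.2, 15.2 and 19.8 CPM beside copper against 36.4, 80.1, 69.5 and 59.4 CPM beside titanium (-1.96 ± 0.37, adjusted p = 0.00353). Without rabbit 2, 7 of the 15 were lower.

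Of 8 adipocyte genes 2 were called lower (median -0.69). ADIPOQ, the fat cell hormone adiponectin, stood at 0.231, 0.262, 0.757 and 0.367 CPM beside copper and at 22.9, 9.78, 12.7 and 21.9 CPM beside titanium (-5.32 ± 0.54, adjusted p = 0.000248). ACACB, an acetyl-CoA carboxylase, stood at 0.346, 1.05, 1.95 and 0.857 CPM beside copper against 10.4, 9.36, 9.69 and 11.0 CPM beside titanium (-3.38 ± 0.50, adjusted p = 0.00103), and PPARG, the fat cell regulator that macrophages also express, at 1.498, 2.88, 3.57 and 2.33 CPM beside copper against 2.08, 4.55, 5.24 and 5.23 CPM beside titanium without passing (-0.71 ± 0.40, adjusted p = 0.205). Of 4 skeletal muscle genes 1 was lower (median 0.66): ACTN2, an actinin of the sarcomere, at 0.346, 0.262, 0.541 and 0 CPM beside copper against 9.34, 0.919, 0.825 and 1.22 CPM beside titanium (-2.81 ± 0.87, adjusted p = 0.0334), a call lost without rabbit 1 (-1.86), rabbit 2 (-3.11) or rabbit 4 (-2.32). Of 4 genes of nerve and Schwann cells 2 were higher and 1 lower (median 1.64). MBP, the myelin basic protein gene, whose locus also encodes the golli proteins of leukocytes, stood at 73.7, 72.4, 122 and 48.9 CPM beside copper and at 3.52, 2.76, 2.18 and 3.44 CPM beside titanium (4.68 ± 0.49, adjusted p = 0.000255). The neural and stromal adhesion molecule NCAM1 stood at 0, 0.262, 1.08 and 0 CPM beside copper against 9.61, 10.9, 18.2 and 5.87 CPM beside titanium (-5.43 ± 0.70, adjusted p = 0.000585). The mast cell receptor KIT and the keratin KRT15, the sole tested genes of their lists, did not pass.

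Over all tested genes, 20 had no read in any copper library and 12 none in any titanium library. The 6 named genes with the largest bounds among the former include a matrix gene and a pair of endothelial genes, and each fold below is against 3 counts over the copper group. MGP, the matrix Gla protein that inhibits calcification, stood at 40.2, 3.09, 5.78 and 1.00 CPM beside titanium, at least 184-fold lower beside copper and at least 33.0-fold without rabbit 1. STAB2, a scavenger receptor of sinusoidal endothelium such as that of marrow, stood at 3.20, 7.44, 7.19 and 10.8 CPM beside titanium, at least 71.3-fold lower. CLEC14A, an endothelial lectin, stood at 4.54, 3.51, 1.38 and 1.79 CPM beside titanium, at least 33.5-fold lower (18.1-fold without rabbit 1). The others were the water channel AQP4 (at least 67.5-fold, 10.9-fold without rabbit 3), the netrin receptor UNC5C (at least 46.5-fold, 18.2-fold without rabbit 3) and the laminin chain LAMA3 (at least 34.0-fold, 20.6-fold without rabbit 3).

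Signals that direct repair had more lower than higher genes. Of 26 tested genes of BMP and TGF-beta signalling, 14 were called lower and 2 higher (median -1.97). TGFB3, a ligand, stood at 0.231, 0.393, 1.41 and 0.245 CPM beside copper and at 9.21, 22.9, 20.2 and 10.53 CPM beside titanium (-4.93 ± 0.51, adjusted p = 0.000248). INHBA, the subunit of activin A, an inflammatory ligand of the same family, stood at 30.3, 8.78, 43.6 and 17.9 CPM beside copper and at 1.47, 2.42, 2.71 and 1.15 CPM beside titanium (3.58 ± 0.52, adjusted p = 0.000908). The groups were separate in both, in opposite directions. Of 20 tested genes of Wnt signalling, 13 were lower and none higher (median -2.69), and without rabbit 2 there were 7. FZD4, a Wnt receptor of vessels, stood at 0.115, 0, 0.541 and 0.122 CPM beside copper against 6.22, 6.18, 10.52 and 3.37 CPM beside titanium (-5.15 ± 0.64, adjusted p = 0.000528), and the co-receptor LRP6 at 2.77, 1.84, 4.87 and 3.18 CPM beside copper against 16.4, 12.5, 28.1 and 10.4 CPM beside titanium (-2.39 ± 0.38, adjusted p = 0.00148).

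Of 24 tested growth factors, receptors and binding proteins of repair, 12 were lower and 1 higher (median -1.92). IGF1, insulin-like growth factor 1, stood at 0.692, 1.31, 1.30 and 0.980 CPM beside copper and at 27.5, 28.1, 66.9 and 31.9 CPM beside titanium (-5.11 ± 0.45, adjusted p = 0.000198). The fibroblast growth factor receptors FGFR1, at 1.96, 0.524, 3.78 and 1.71 CPM beside copper against 28.8, 61.2, 62.9 and 29.1 CPM beside titanium (-4.55 ± 0.57, adjusted p = 0.000528), and FGFR2, at 0.231, 0.262, 2.38 and 0.245 CPM beside copper against 3.10, 23.2, 36.6 and 16.3 CPM beside titanium (-4.91 ± 0.58, adjusted p = 0.000415), were lower without overlap. HBEGF, a ligand of the EGF receptor that macrophages release, was the higher one, at 7.15, 2.62, 9.73 and 5.76 CPM beside copper against 0.187, 0.376, 0.295 and 0.287 CPM beside titanium (4.36 ± 0.57, adjusted p = 0.000591). A few further genes were among the lowest named: the mechanosensitive channel PIEZO2 (0, 0.262, 0.216 and 0.735 CPM beside copper against 31.7, 19.7, 38.0 and 7.74 CPM beside titanium, -6.17 ± 0.85, adjusted p = 0.000744), the protocadherin FAT1 (2.65, 1.97, 7.03 and 3.80 CPM beside copper against 106, 146, 385 and 114 CPM beside titanium, -5.54 ± 0.49, adjusted p = 0.000198), the receptor phosphatase PTPRD (-5.51 ± 0.44, adjusted p = 0.000168) and the membrane peptidase MME (0.115, 0.524, 1.19 and 0.122 CPM beside copper against 2.32, 15.7, 58.3 and 23.4 CPM beside titanium, -5.60 ± 0.56, adjusted p = 0.000248).

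Matrix proteases and their inhibitors were called lower in 13 of 26 and higher in 5 (median -1.36). The higher ones included the collagenase MMP1, at 16.4, 34.5, 6.05 and 42.1 CPM beside copper and at 0.854, 0.376, 0.118 and 0 CPM beside titanium (6.08 ± 0.80, adjusted p = 0.000628), and the stromelysin MMP3, at 7.15, 9.70, 7.57 and 26.1 CPM beside copper and at 0.134, 0.0418, 0.0295 and 0 CPM beside titanium (7.29 ± 0.70, adjusted p = 0.000215), both secreted enzymes. In neither did the groups overlap. MMP16, a membrane-bound matrix metalloprotease, had reads beside copper in rabbit 4 alone, at 0.122 CPM, against 5.34, 6.77, 19.2 and 8.02 CPM beside titanium (adjusted p = 0.00024). ADAMTS12, a secreted protease of the ADAMTS family, stood at 0.692, 0.524, 0.324 and 0.490 CPM beside copper against 21.9, 6.56, 11.5 and 4.59 CPM beside titanium (-4.28 ± 0.51, adjusted p = 0.000431). Of 16 genes of clotting and plasminogen 5 were higher and 3 lower (median 0.02), F3 (tissue factor) and PLAUR (the urokinase receptor) among the higher and PLAT (tissue plasminogen activator) among the lower.

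Genes of glucose uptake and glycolysis were called higher in 11 of 21 tested and lower in 1 (median 1.53). SLC2A3, the glucose transporter GLUT3 of neutrophils and neurons, stood at 562, 320.5, 808 and 281 CPM beside copper and at 11.3, 6.23, 5.01 and 15.3 CPM beside titanium (5.70 ± 0.64, adjusted p = 0.000361). PKM, pyruvate kinase, stood at 427, 251, 396 and 284 CPM beside copper against 31.2, 41.8, 35.4 and 32.5 CPM beside titanium (3.24 ± 0.44, adjusted p = 0.00072), and ALDOA, an aldolase, at 363, 338, 348 and 284 CPM beside copper against 61.1, 68.7, 50.3 and 67.7 CPM beside titanium (2.43 ± 0.41, adjusted p = 0.00193). PFKM, the muscle form of phosphofructokinase, was the lower one. Of 17 hypoxia factors and targets 4 were higher and none lower (median 0.54), with 1 higher without rabbit 3 and 2 without rabbit 1. KDM3A, a histone demethylase induced by hypoxia, stood at 30.9, 16.6, 34.4 and 11.6 CPM beside copper against 10.3, 5.56, 6.01 and 7.02 CPM beside titanium (1.61 ± 0.40, adjusted p = 0.0135, lost without rabbit 3).

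The 13 protein-coding genes of the mitochondrial genome were all called higher (median 2.26). ND4, a subunit of respiratory complex I, stood at 6027, 25647, 3884 and 18801 CPM beside copper and at 911, 3126, 1291 and 2808 CPM beside titanium (2.53 ± 0.53, adjusted p = 0.00572). Another complex I subunit of that genome, ND5, gave 2.45 ± 0.50 (adjusted p = 0.00533). The copper libraries of rabbits 2 and 4 were the highest by a wide margin, and without rabbit 2 only 3 of the 13 passed. The nuclear genes for the same complexes did not move with them, with 1 of 35 called higher, none lower and a median of -0.17. That gene, NDUFA2, stood at 11.6, 4.98, 13.5 and 8.08 CPM beside copper against 3.36, 3.05, 2.24 and 1.43 CPM beside titanium (1.90 ± 0.44, adjusted p = 0.00921).

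Of 27 tested cytosolic ribosomal protein genes none was called in either direction by edgeR or DESeq2, and none had an unadjusted p under 0.05 (median -0.43). The distal sites fitted alone called 7 lower, beside 2349 of all 10619 genes tested there. RPS3A, of the smallest p in this list over all rabbits, stood at 43.0, 106, 51.3 and 95.3 CPM beside copper against 117, 121, 145 and 107 CPM beside titanium (-0.83 ± 0.43, adjusted p = 0.176). Among genes of at least 20 CPM the narrowest intervals included those of MED13, a subunit of the Mediator kinase module (log2 fold change 0.02 ± 0.35), CPNE1, a calcium-dependent phospholipid-binding protein (0.12 ± 0.34), RBBP6, NUFIP2 and AP3B1. Of 29 genes of DNA replication and mitosis 2 were higher and 5 lower (median -0.91), and 2 were lower without rabbit 1, 3 or 4. The replicative helicase subunit MCM5 stood at 30.2, 18.6, 34.4 and 13.6 CPM beside copper against 4.27, 4.97, 3.45 and 6.81 CPM beside titanium (2.27 ± 0.47, adjusted p = 0.00542). The kinetochore motor CENPE (-2.05 ± 0.46, adjusted p = 0.00816) and the mitotic kinase PLK1 (-1.99 ± 0.48, adjusted p = 0.0109, lost without rabbit 2) were lower.

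Lysosome and proton pump genes were higher in 16 of 35 tested and lower in 1 (median 1.16), and 8 were higher without rabbit 2. ATP6V0A1, a membrane subunit of the proton pump, stood at 198, 172, 367 and 153 CPM beside copper and at 22.6, 13.8, 13.5 and 22.3 CPM beside titanium (3.57 ± 0.49, adjusted p = 0.000759). Another membrane subunit, ATP6V0C (3.10 ± 0.50, adjusted p = 0.00146), and the lysosomal membrane protein LAMP2 (2.79 ± 0.48, adjusted p = 0.0021) were higher, and the protease CTSF was lower (-2.69 ± 0.44, adjusted p = 0.00157).

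Of 32 tested heat shock proteins and cochaperones 7 were higher and 1 lower (median 0.48). The cytosolic chaperone HSP90AA1 stood at 873, 551, 941 and 801 CPM beside copper and at 92.5, 110.5, 155 and 151 CPM beside titanium (2.64 ± 0.44, adjusted p = 0.00178), and DNAJB9, a cochaperone of the endoplasmic reticulum, at 17.5, 18.5, 26.1 and 20.5 CPM beside copper against 3.90, 1.67, 7.37 and 2.08 CPM beside titanium (2.67 ± 0.43, adjusted p = 0.00154). Of 19 genes of the integrated stress response 7 were higher and 2 lower (median 0.84). DDIT3, the stress transcription factor CHOP, stood at 131, 82.4, 267 and 66.4 CPM beside copper and at 6.14, 4.43, 3.59 and 6.52 CPM beside titanium (4.52 ± 0.57, adjusted p = 0.000539). The amino acid transporter SLC7A5 stood at 356, 276, 380.1 and 168 CPM beside copper against 3.87, 10.7, 5.54 and 10.46 CPM beside titanium (5.33 ± 0.60, adjusted p = 0.000367), and the transcription factor CEBPB at 30.1, 19.9, 16.8 and 12.0 CPM beside copper against 1.09, 1.55, 0.471 and 0.788 CPM beside titanium (4.38 ± 0.44, adjusted p = 0.000248). The constitutive proteasome subunit PSMB3 gave 1.91 ± 0.36 (adjusted p = 0.00368). Of 20 genes of cell death 11 were higher and none lower (median 1.28), and 7 were higher without rabbit 1 or without rabbit 3. GSDMD, the pore-former of pyroptosis, stood at 47.9, 24.8, 30.2 and 38.9 CPM beside copper and at 2.03, 2.42, 1.36 and 2.79 CPM beside titanium (4.05 ± 0.42, adjusted p = 0.000255), and the initiator caspase CASP10 at 44.6, 15.9, 47.6 and 13.5 CPM beside copper against 2.83, 2.59, 2.18 and 1.07 CPM beside titanium (3.68 ± 0.45, adjusted p = 0.000468).

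The distal sites of rabbits 1 and 3 and the proximal sites of rabbits 2 and 4 were also compared. All 3053 called genes had the same sign at both ends, which the choice of genes by a test over both largely fixes. Over all 10078 tested genes the log2 fold changes at the ends correlated at 0.717 (Pearson, across genes, which are not independent replicates). The difference of the copper effect between the ends was called for no gene (0% at an adjusted p under 0.05, smallest adjusted p 0.0836, edgeR's quasi-likelihood test of the interaction), while 2712 genes (26.9%) had an unadjusted p under 0.05, 1135 of them higher and 1577 lower at the proximal sites. Without rabbit 2 the test called 8 genes. The list medians at the 2 ends were 4.52 distal and 2.34 proximal for neutrophils, 4.87 and 3.50 for immediate early genes, and -2.75 and -4.38 for osteoblasts. Macrophages had -0.04 and 1.70, lysosome genes 0.61 and 1.77, and nuclear respiratory genes -0.84 and 0.61. Fitted alone, the distal sites called 2349 of 10619 genes lower and the proximal sites 1055 of 9819, so list counts at the ends have unlike backgrounds. Each of these fits rests on 1 pair of rabbits and has little to judge the spread between animals by. At the distal sites 7 cytosolic ribosomal protein genes (median -0.69) and 11 nuclear respiratory genes were lower. Of the macrophage genes 6 were lower and 6 higher there. The ribosomal list had 0 lower at the proximal sites (median 0.06). The genes of smallest interaction p that the rule names did not pass over the 4 rabbits, except for ARHGAP26. MMP12, the macrophage elastase, stood at 132, 439, 47.1 and 189 CPM beside copper and at 225, 31.5, 75.5 and 3.87 CPM beside titanium, with a log2 fold change of -0.72 distal and 4.69 proximal. ATP6V0D2, a proton pump subunit of osteoclasts and macrophages, stood at 7.15, 83.1, 5.84 and 33.2 CPM beside copper and at 56.2, 13.7, 26.05 and 8.53 CPM beside titanium (-2.55 and 2.27). The pump subunit ATP6V1H (-1.48 and 1.77), the lipid transporter family member ABCA6 (-3.92 and 0.26) and the cyclin CCNL2 (2.33 and -1.07) also changed sign between the ends, and ARHGAP26, a GTPase-activating protein, gave 4.44 and 1.18, with the call over the 4 rabbits lost without rabbit 1 (2.33).

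**Figure D4:**
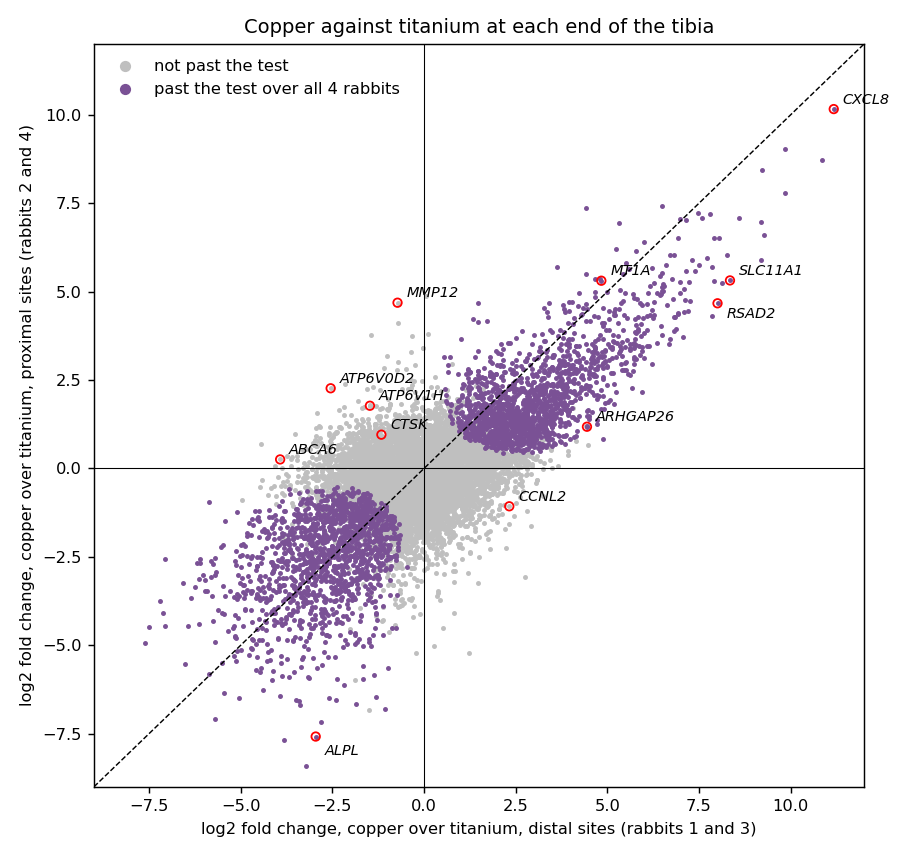
Log2 fold change of copper over titanium at the distal sites (horizontal axis, rabbits 1 and 3) against that at the proximal sites (vertical axis, rabbits 2 and 4) for all 10078 tested genes, with the 3053 genes past the test over the 4 rabbits in purple and a dashed line of equality. The purple genes lie in the quadrants of equal sign, and MMP12, ATP6V0D2 and CCNL2 lie in those of unequal sign.

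Beside the other sites of the same rabbits, a change of metal was accompanied by many more calls than a change of surface or the presence of a titanium implant. These comparisons share the Turned Ti libraries, so their values stand side by side only. In each rabbit SLA Ti and Sham lay at the other end of the tibia from Turned Ti and Turned Cu. Within a rabbit the surface and Sham comparisons thus also differ in the end, which the comparison of metals does not, so the counts are not like for like. In 1 fit of 11617 genes over the 16 libraries, Turned Cu against Turned Ti called 4632 genes, SLA Ti against Turned Ti called 1 (0.00861%), an unnamed gene whose call was lost without rabbit 3 or 4, and Turned Ti against Sham called none (0%). At an unadjusted p under 0.05 the counts were 5630, 958 and 313. On the scale of all 16 libraries, CXCL8 stood at 4.64, 3.32, 2329 and 59.0 CPM beside SLA Ti and at 0.536, 1.08, 2.94 and 0.402 CPM in Sham. The SLA Ti library of rabbit 3 held 936 CPM of IL1B, above the range of 346 to 678 CPM beside copper, and 416 CPM of CSF3R, below the range of 502 to 923 CPM there. The same library held 5.50 CPM of MT1A and 17.8 CPM of HMOX1, against 104 to 219 and 854 to 2320 CPM beside copper. In the authors' deposited table, 5685 genes passed p under 0.05 and a 2-fold change between these 2 groups, 3565 higher and 2120 lower in copper, and 2995 of the 3053 genes called here were among them in the same direction and 0 in the other.

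**Figure D5:**
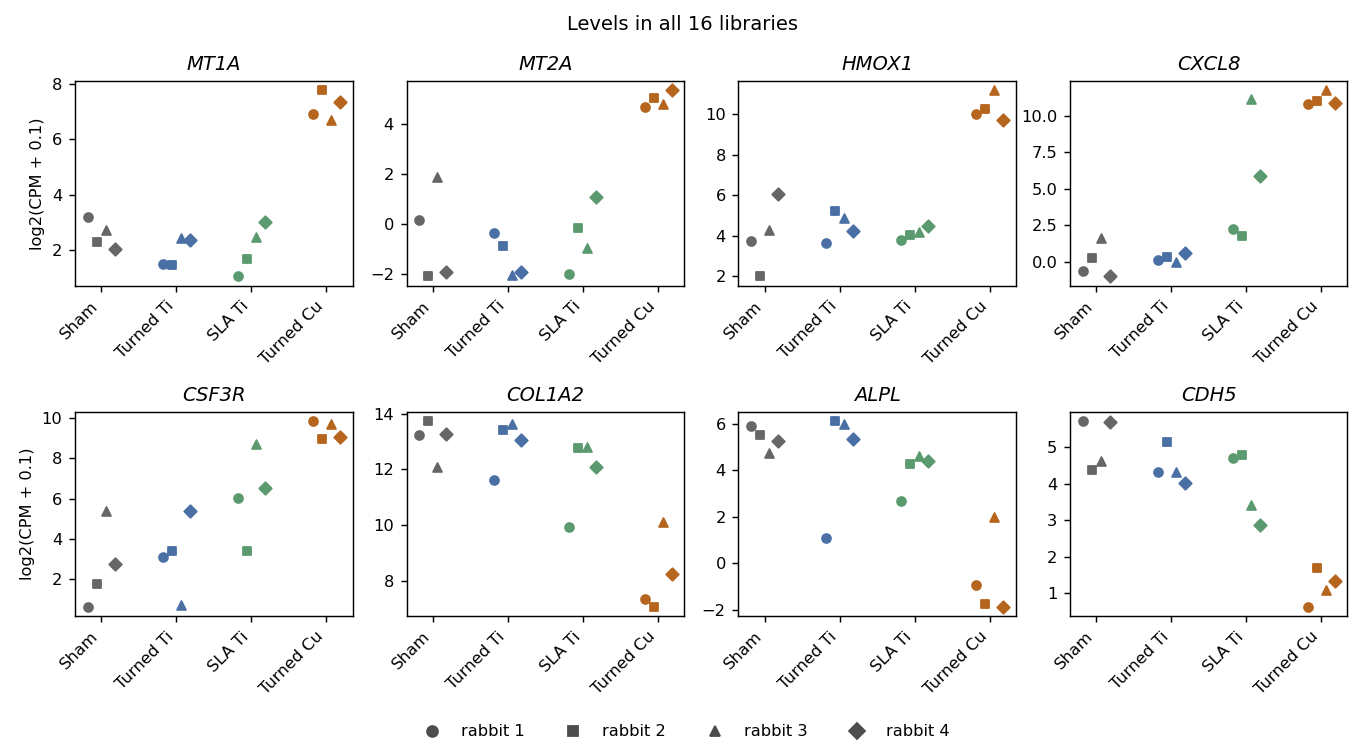
Levels of 8 genes in all 16 libraries as log2(CPM + 0.1), by group and with 1 marker shape per rabbit. MT1A, MT2A and HMOX1 are high in Turned Cu alone, whereas for CXCL8 and CSF3R the SLA Ti library of rabbit 3 lies near the copper libraries.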

How the data were processed

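Tissue scraped from the implant sites of 4 rabbits was sequenced as stranded total RNA, per the labels' protocols. The authors deposited 1 gene table with estimated counts per gene and library, all whole numbers, made with STAR 2.7.1a and Cufflinks 2.2.1 per the submitters' processing notes (neither these notes nor the labels name a genome build). The same deposited table holds the authors' log2 ratio and p-value for each comparison, whose test its header does not name; these are quoted only where named as the authors', with the sign turned to copper over titanium.

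From the counts of the 8 Turned Cu and Turned Ti libraries, genes were kept by filterByExpr (minimum count 10), scaled by TMM and tested with the quasi-likelihood F test of edgeR 4.0.16 (R 4.3.3, limma 3.58.1) with rabbit and implant as terms. The rabbit is a block because the labels give each pair of libraries to the same animal; deviations of same-rabbit libraries from their group means correlated by 0.045, -0.088, -0.117 and -0.161 in rabbits 1 to 4. P-values were adjusted by Benjamini-Hochberg over all 10078 tested genes and called under 0.05. Standard errors are the log2 fold change divided by the square root of F, and intervals are 95%. The common dispersion was 0.221. A second fit added the interaction of implant and end, and another fit took all 16 libraries. The code was tested on simulated data.

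Gene lists, the rule for naming genes and the comparison itself were chosen with earlier results of these data known. Named were the 12 highest and 12 lowest symbols with a mean of at least 20 CPM in the higher group and the same sign in all rabbits, up to 4 members of each list by p, metal and bone genes and defining markers whatever their p, genes without a read in 1 group, and those of smallest interaction p or narrowest interval; 2 genes so named are not reported here. List members named without a value were chosen after their calls were seen. Where a symbol occurs more than once, the gene with most counts was used. Alternatives were the fit without the replicate block, all 16 libraries, RLE scaling, no filter, removal of ribosomal RNA and mitochondrial genes, DESeq2 1.42.0, each end alone and each rabbit left out. Reads from near-identical or overlapping genes cannot be separated in these counts. Totals per library are in the text. The p-values of the fit with the block rest on how the copper to titanium difference varied between 4 rabbits, with variances moderated over genes. Those of the permutation tests treat the libraries as unpaired.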

Additional observations from a re-analysis of the deposited data

Results flagged for a closer look

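In 346 sets of 4 libraries, 25 values stood far from the other 3 of their group by Dixon's criterion, where chance alone flags about 1 in 20 groups. Most sets were a gene with a value in the text, in each group, as log2 of CPM plus 0.1. The rest were untransformed library values: total counts, shares of ribosomal and mitochondrial RNA, nuclear coding counts and genes with at least 10 counts. No library value was flagged. The titanium library of rabbit 1 was low for RUNX2 (2.30 CPM), SP7 (0.454 CPM), ALPL (1.68 CPM), BGLAP (0.347 CPM), DMP1 (0.294 CPM) and PPARG (2.08 CPM), of which the first 5 are bone genes, and it was high for ACTN2 (9.34 CPM). The titanium library of rabbit 4 was high for NR4A3 (1.93 CPM) and CHI3L1 (52.2 CPM) and low for MSR1 (2.22 CPM). That of rabbit 2 was high for IL1RN (16.1 CPM) and FTL (375 CPM), and that of rabbit 3 for IGF1 (66.9 CPM).

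Among the copper libraries, that of rabbit 3 was high for CXCL8 (2920 CPM), PTGS1 (0.541 CPM), ATP7B (0.973 CPM), BGLAP (2.38 CPM), OMD (0.865 CPM), PTPRD (1.51 CPM) and FGFR2 (2.38 CPM). That of rabbit 4 was high for BATF2 (54.1 CPM), LOX (4.04 CPM) and MMP16 (0.122 CPM). That of rabbit 2 was high for TEK (1.05 CPM) and low for ITGA2B (0 CPM). Without the rabbit concerned, RUNX2 passed the test (log2 fold change -2.31) and the call of ACTN2 was lost (-1.86), while the other genes named here kept their sign and their side of the threshold. No cause was tested.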

How the results depend on the processing

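Of the 150 genes in the text called here, 133 kept their call and direction under every alternative run, 146 kept them under all that leave out no rabbit and no end, and none reversed. Of all 3053 calls, none reversed under any alternative. Without the replicate block, 1882 genes were higher and 1914 lower. With all 16 libraries 2391 were higher and 2241 lower with the block, and 2451 and 2277 without it. DESeq2 gave 1831 and 1748. Without ribosomal RNA and mitochondrial genes, 1585 of 9584 tested genes were higher and 1413 lower. Distal sites alone gave 2440 and 2349, and proximal sites alone 1207 and 1055. Leaving out 1 rabbit gave 1127 to 1869 higher and 902 to 1343 lower genes (904 lower without rabbit 1, 902 without rabbit 2); 51.9% of calls were higher in the fit as reported and 60.4% without rabbit 2. The interaction with the end called 1353 genes with no filter, and 0 to 8 with a rabbit left out. SLA Ti against Turned Ti called 0 genes without the replicate block and 0 to 1 with a rabbit left out.

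The signs that changed all belong to genes not called. With the proximal sites alone the log2 fold change was 0.18 for CCS, -0.70 for LTF, 0.13 for CD163, 1.05 for CTSK, 2.38 for ATP6V0D2, -0.99 for CCNL2 and 0.34 for ABCA6, and with the distal sites alone -1.48 for ATP6V1H and -0.71 for MMP12. Without the replicate block it was -1.19 for LTF and 0.30 for ATP6V0D2. With all 16 libraries and the block it was -0.10 for LTF, and without the block -1.01 for LTF and 0.56 for ATP6V0D2. With no filter MED13 gave -0.10. With a rabbit left out the values ran from -0.72 to 0.22 for CCS, -0.40 to 1.70 for LTF, -0.39 to 0.47 for CTSK, -1.25 to 1.13 for ATP6V0D2, -0.02 to 0.21 for MED13, -0.03 to 1.43 for CCNL2 and -0.42 to 0.93 for ATP6V1H. With every rabbit and end kept, 4 called genes in the text lost their call: BGLAP with 16 libraries and the block, SPP1 and MMP9 with 16 libraries with or without the block, MMP9 also without ribosomal RNA and mitochondrial genes, and SOX9 without the block with 8 or 16 libraries. At the proximal sites alone SLC30A4, SLC39A1, GP5, MMP9, COL14A1, ACTN2, NDUFA2, CENPE, KDM3A and SPP1 lost their calls, and at the distal sites alone PTGS1, SLC39A14, SOX9, MMP9 and PLK1 did. The causes were not tested. Genes with too few libraries at the minimum count, such as SLC31A1 and EPX, have counts and no test.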
